A study of Mus musculus with 15 samples.

Results

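The genes described here are 36 markers of the blood vessel wall, read in bulk RNA from the fat around the mouse aorta. They comprise 18 genes of endothelial cells, which line all vessels, 14 genes of smooth muscle and 4 genes of pericytes. Smooth muscle cells and pericytes wrap the endothelium and are together called mural cells. The members were found by their Ensembl identifiers in a table of 43352 genes, and 36 of 36 were present and passed the filter on low counts. Raw member counts ran from 258 for Myocd to 81477 in single libraries.

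Perivascular adipose tissue was taken from the thoracic aorta (tPVAT) and the abdominal aorta (aPVAT) of mice 11 weeks old. Control mice carried Prdm16flox alleles without Cre. The cKO mice carried Prdm16flox with AdipoQCre, a Cre recombinase driven by regulatory sequence of the adipocyte gene Adipoq, so the deletion is directed at adipocytes and not at the vessel wall. There were 4 tPVAT control, 4 tPVAT cKO, 4 aPVAT control and 3 aPVAT cKO libraries, the last numbered 1, 3 and 4. The labels state neither the sex, nor which exon is flanked by loxP sites, nor whether each library came from a separate animal, so the tests measure only how these libraries spread, which may be technical.

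Levels are given as CPM, counts scaled to a common library size with TMM factors, which sets the bulk of genes equal between libraries. Tests are edgeR quasi-likelihood F tests over 19645 genes, and a gene is called where its Benjamini-Hochberg adjusted p is under 0.05. Library totals ran from 37761133 to 68735385 counts. Prdm16 lay at 41.1 to 55.6 CPM in tPVAT control and 21.2 to 23.8 in tPVAT cKO, and at 21.4 to 26.8 in aPVAT control and 14.7 to 18.3 in aPVAT cKO, and the 2 genotypes did not overlap in either depot. Counts of the mitochondrial genome made up 33.4% to 36.4% of tPVAT control and 26.5% to 31.6% of tPVAT cKO libraries, without overlap. They made up 13.0% to 16.0% of aPVAT libraries. Structural RNA made up 2.24% of aPVAT cKO 4 and 0.929% of aPVAT control 2, against 0.0704% to 0.213% of the other libraries, and results that rest on either are given with and without it.

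The endothelium is kept in its state by signals from neighbouring cells. Vascular endothelial growth factors bind the receptors Kdr (VEGFR2) and Flt1 (VEGFR1), and angiopoietins bind Tek (TIE2), with which Tie1 works as a co-receptor. ETS family factors such as Erg and SOXF factors such as Sox17 and Sox18 drive many endothelial genes. Smooth muscle genes are switched on together by serum response factor with its partner Myocd at a DNA element called the CArG box, while PDGF signals to Pdgfrb and Notch signals to Notch3 recruit and maintain mural cells. In fat, capillary endothelium passes fatty acids to adipocytes, and larger vessels inside the depot carry a smooth muscle coat.

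The starts of the genes were searched for an element of each class. RefSeq promoter windows on GRCm38.p6, 250 bases before each start, were matched for 10 endothelial, 10 smooth muscle and 3 pericyte genes. Windows of Kdr and Flt1 are shown because these 2 genes differed between depots in the opposite direction to the other endothelial genes that were called, and those of Emcn and Myl9 because they hold the searched motifs. All 4 are printed 5′ to 3′ on the strand of the gene, without bases that GENCODE places inside the gene. Capitals mark CAGGAAG (an ETS-type motif, here as its reverse complement) in Emcn and the CArG box in Myl9.
Kdr: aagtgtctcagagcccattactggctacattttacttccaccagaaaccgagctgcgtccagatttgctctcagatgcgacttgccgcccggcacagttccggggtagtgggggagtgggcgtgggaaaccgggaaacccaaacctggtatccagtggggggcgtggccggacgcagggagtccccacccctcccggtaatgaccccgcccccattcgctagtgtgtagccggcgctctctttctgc
Flt1: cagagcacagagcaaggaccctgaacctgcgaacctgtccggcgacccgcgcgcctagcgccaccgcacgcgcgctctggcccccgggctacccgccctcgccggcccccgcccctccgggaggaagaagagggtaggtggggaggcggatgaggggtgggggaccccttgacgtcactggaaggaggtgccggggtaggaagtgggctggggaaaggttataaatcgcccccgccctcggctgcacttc
Emcn: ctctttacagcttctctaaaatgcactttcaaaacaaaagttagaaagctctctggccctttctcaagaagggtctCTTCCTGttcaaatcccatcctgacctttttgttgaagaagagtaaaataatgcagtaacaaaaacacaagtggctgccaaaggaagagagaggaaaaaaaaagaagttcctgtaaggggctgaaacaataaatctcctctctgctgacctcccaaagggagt
Myl9: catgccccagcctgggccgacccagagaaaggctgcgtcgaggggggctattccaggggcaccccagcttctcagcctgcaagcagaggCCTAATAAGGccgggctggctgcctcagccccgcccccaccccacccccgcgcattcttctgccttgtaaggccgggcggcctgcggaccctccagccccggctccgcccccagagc
The Kdr window is chr5:75978459-75978705 on the minus strand, that of Flt1 chr5:147726012-147726261 on the minus strand, that of Emcn chr3:137340828-137341066 on the plus strand and that of Myl9 chr2:156775214-156775419 on the plus strand. On both strands, CAGGAAG was found in 5 of 14 endothelial windows (35.71%, of the genes Egfl7, Emcn, Erg and Robo4) and in 0 of 11 smooth muscle windows, against 10.82% of all 32851 windows. The CArG box was searched only as the exact pattern CCWWWWWWGG, where W is A or T. It was found in 1 of 11 smooth muscle windows (9.09%, Myl9) and 0 of 14 endothelial windows, against 1.47% of all windows. Near matches, such as ccctatatgg in the Acta2 window, were not counted. The Myl9 box lies 161 to 152 bases before the RefSeq start. A match is a run of letters and not a bound site, and these windows hold only the bases next to the start.

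The levels of the markers themselves differed by orders of size between genes. Per kilobase of exon (RPKM), Acta2, the smooth muscle actin, stood highest among members in every group, at 445 ± 76.0 (SD, n = 4) in tPVAT control and 383 ± 95.5 (n = 4) in aPVAT control. The myosin light chain Myl9 and the actin-binding protein Tagln followed, at 255 ± 30.2 and 229 ± 24.9 RPKM in tPVAT control. Myl9 and Tagln lay within their SDs of each other in tPVAT control and both aPVAT groups, and Acta2 and Myl9 in both aPVAT groups. Myocd, the coactivator that drives this programme, stood lowest of the smooth muscle genes at 1.56 ± 0.204 RPKM in tPVAT control. Among endothelial genes of tPVAT control the junction cadherin Cdh5 led with 57.5 ± 4.12 RPKM, before the adhesion molecule Pecam1 with 46.0 ± 1.5 and the TGF-beta co-receptor Eng with 40.6 ± 3.46. In aPVAT control the order was headed by Plvap, a protein of fenestrae and caveolae, with 78.3 ± 8.97 RPKM and Pecam1 with 73.1 ± 11.6, which overlap within their SDs. In tPVAT control 3 endothelial genes stood above Plvap. Rgs5, a regulator of G protein signalling typical of pericytes, was the highest pericyte gene in every group, at 81.9 ± 6.13 RPKM in tPVAT control and 147 ± 3.66 (n = 3) in aPVAT cKO.

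**Figure D1:**
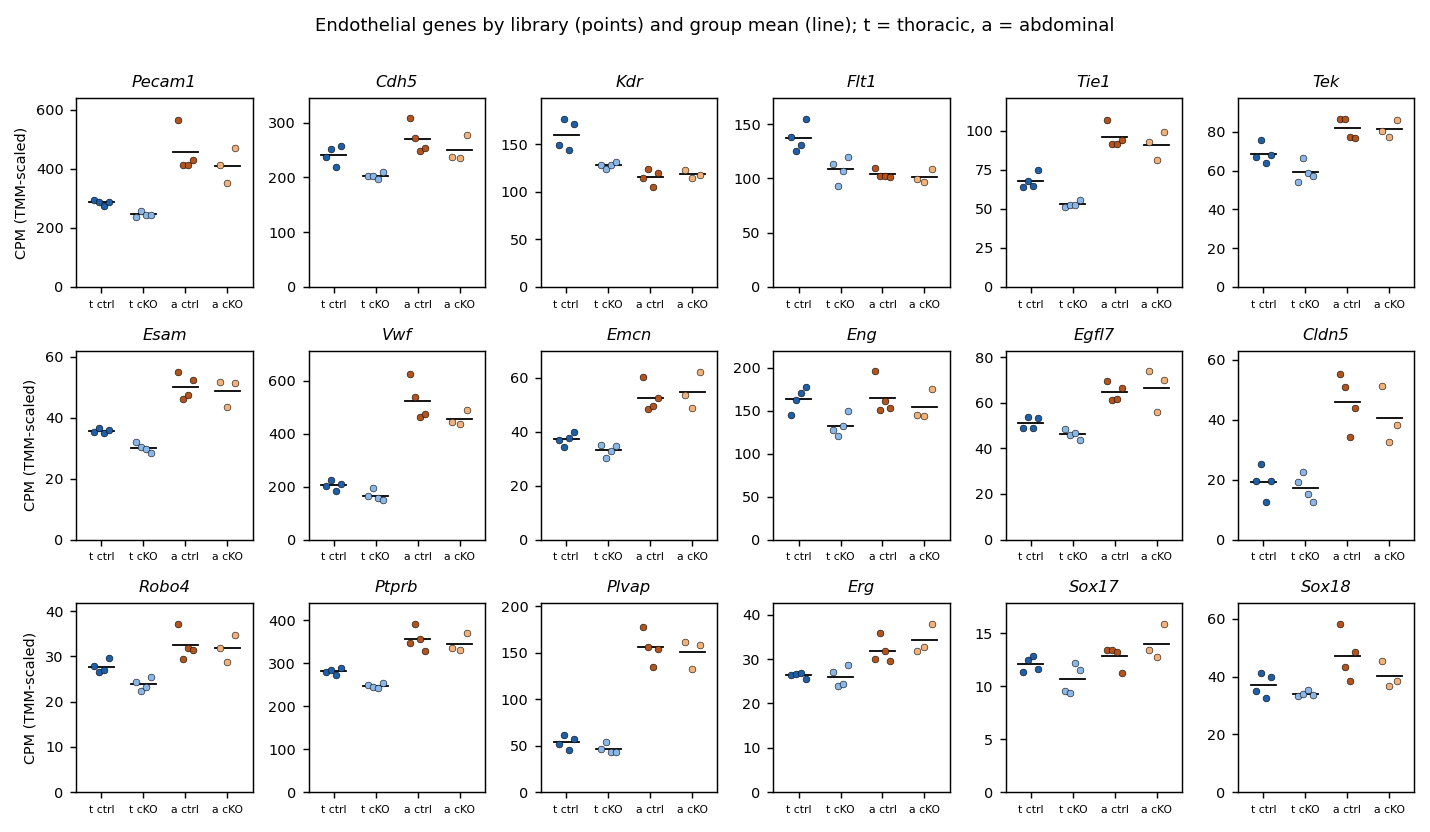
CPM of the 18 endothelial genes in each library (points) with group means (lines), for thoracic (t) and abdominal (a) fat of control and cKO mice; each vertical axis starts at 0. Vwf and Plvap lie higher in every aPVAT than in every tPVAT library, and tPVAT control lies highest for Kdr and Flt1.

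The comparison of depots in control mice asks how the vessel wall markers of aPVAT stand against those of tPVAT. Relative to the bulk of genes, endothelial markers were mostly higher in aPVAT: 13 of 18 were called higher and 2 lower, while of the 18 mural markers 3 were called higher and 5 lower. Of all genes tested 56.6% were called in this comparison, 29.3% higher and 27.3% lower, so a call by itself is common, and the mural share of 44.4% called lies under that background. The median log2 fold change was 0.34 over endothelial, -0.20 over smooth muscle and 0.24 over pericyte members, against 0.038 over all genes. In bulk tissue fewer cells of a type and less RNA per cell cannot be told apart. All depot directions are relative to the bulk of genes: on library totals without TMM the median of all genes stands 0.78 (log2) higher in aPVAT, and the 2 lower endothelial genes then take positive values that lie below that median.

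Plvap and Vwf differed most among endothelial genes. Plvap (chr8:71497765-71511752, minus strand, GENCODE M21 on GRCm38) lay at 51.3, 61.8, 45.4 and 57.5 CPM in the tPVAT controls and at 178, 156, 135 and 154 CPM in the aPVAT controls. All aPVAT libraries lay above all tPVAT libraries, and the level was 2.88-fold higher (log2 fold change 1.53, SE 0.111, adjusted p = 1.14e-08). Vwf, which encodes von Willebrand factor stored in endothelial granules (chr6:125546774-125686679, plus strand), lay at 202, 226, 185 and 209 CPM in tPVAT and at 624, 539, 463 and 472 CPM in aPVAT controls. These groups did not overlap either, with a 2.56-fold higher level in aPVAT (log2 fold change 1.35, SE 0.106, adjusted p = 2.64e-08). Cldn5, a tight junction claudin, spread more within groups, at 12.4 to 25.1 CPM in tPVAT and 34.4 to 55.2 CPM in aPVAT controls, and was called higher by 1.27 on the log2 scale (SE 0.219, adjusted p = 0.00014). Pecam1 was higher by 0.67 (SE 0.101, adjusted p = 3.58e-05), with aPVAT control 1 standing far above its group at 564 CPM against 414, 414 and 430.

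Smaller rises were called for Tie1 (0.50), Emcn, a sialomucin of capillaries and veins (0.50), Esam, an adhesion molecule of junctions (0.49), the phosphatase Ptprb (0.34), Sox18 (0.34), Egfl7, a secreted matrix protein (0.33), Erg (0.27), Tek (0.25) and Robo4, a receptor that stabilises vessels (0.23). Their adjusted p ran from 2.55e-05 for Esam to 0.0243 for Robo4. The tPVAT and aPVAT controls overlapped for Robo4 and Sox18 only among these genes, and both lose the call when aPVAT control 1 (adjusted p = 0.0768 and 0.0578) or tPVAT control 3 (0.0603 and 0.0575) is left out, Robo4 also without tPVAT control 2 (0.0637). Cdh5 (0.16, adjusted p = 0.0876), Sox17 (0.08, 0.497) and Eng (0.01, 0.955) did not pass. The groups were separate for 11 of 18 endothelial genes above and 2 below, where 49.5% of all genes had separate groups (25.4% above, 24.1% below).

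The VEGF receptors Kdr and Flt1 went the other way from the other called endothelial genes. Kdr (chr5:75932827-75978458, minus strand) lay at 149, 177, 144 and 171 CPM in tPVAT and at 115, 124, 105 and 120 CPM in aPVAT controls. Every aPVAT control lay below every tPVAT control, and the log2 fold change was -0.46 (SE 0.0722, adjusted p = 5e-05). Flt1 (chr5:147561604-147726011, minus strand) lay at 138, 125, 131 and 155 CPM in tPVAT and at 110, 102, 102 and 101 CPM in aPVAT controls, again without overlap, at -0.40 (SE 0.082, adjusted p = 0.000588). A measure that does not depend on library scaling is the share of a gene among all counts of the 18 endothelial genes. Kdr made up 8.37% ± 0.467 (SD, n = 4) of those counts in tPVAT control and 4.38% ± 0.429 in aPVAT control, and Flt1 7.18% ± 0.602 and 3.92% ± 0.208. The shares of Vwf ran in reverse, at 10.7% ± 0.499 and 19.6% ± 1.02, as did those of Plvap, at 2.81% ± 0.255 and 5.84% ± 0.261. None of these 4 shares overlapped between the depots in control mice. A share also falls when other members rise, so a lower share by itself does not show a lower level. Cdh5, which was not called by depot in control mice, made up 12.6% ± 0.337 in tPVAT control and 10.1% ± 0.0577 in aPVAT control, also without overlap.

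**Figure D2:**
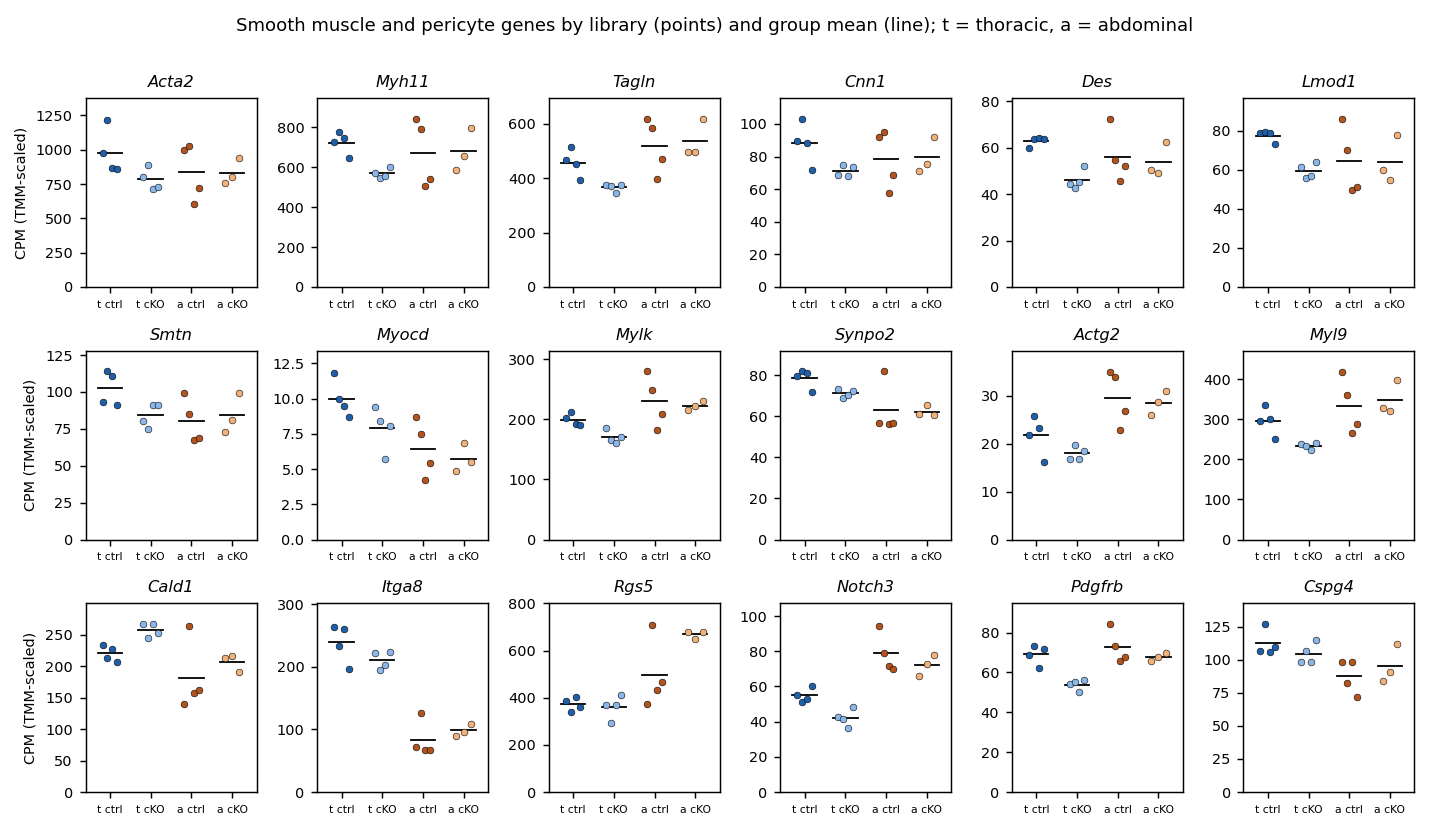
CPM of the 14 smooth muscle and 4 pericyte genes in each library (points) with group means (lines), in the same layout as for the endothelial genes; each vertical axis starts at 0. Itga8 lies at 194 to 264 CPM in tPVAT and 66.6 to 126 CPM in aPVAT, and the contractile genes spread widely among the aPVAT controls.

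Mural genes did not move as a block between depots. Itga8, the integrin alpha 8 chain of contractile cells (chr2:12106632-12301922, minus strand), lay at 264, 233, 261 and 197 CPM in tPVAT and at 72.6, 126, 66.6 and 66.6 CPM in aPVAT controls. It was 2.88-fold lower in aPVAT (log2 fold change -1.53, SE 0.171, adjusted p = 1.67e-06), and its share of mural counts was 5.74% ± 0.653 in tPVAT and 2.07% ± 0.425 in aPVAT control (SD, n = 4 each). The depots did not overlap for this gene. Myocd was lower at -0.64 (adjusted p = 0.0129), Smtn (smoothelin) at -0.36 (0.0276), the NG2 proteoglycan gene Cspg4 at -0.36 (0.0106) and the actin-bundling Synpo2 at -0.32 (0.013). Among these, Smtn loses the call without either of aPVAT controls 3 and 4 or tPVAT controls 2 and 3 (adjusted p = 0.073 to 0.0903).

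Notch3, the Notch receptor of mural cells, was higher in aPVAT, at 94.6, 78.9, 71.7 and 69.9 CPM against 54.9, 51.3, 53.1 and 60.5 CPM in tPVAT controls. The groups did not overlap, and the log2 fold change was 0.52 (SE 0.102, adjusted p = 0.000418). Actg2, the enteric form of smooth muscle actin, was higher by 0.44 (adjusted p = 0.0135), with overlapping groups. Its call was lost in a fit of the control libraries alone (0.39, adjusted p = 0.0693). Rgs5 was higher by 0.41 (SE 0.152, adjusted p = 0.0318), but it lay at 373, 707, 432 and 465 CPM in the aPVAT controls, and without aPVAT control 2 the difference was 0.19 (adjusted p = 0.138), and without tPVAT control 1, 2 or 4 the adjusted p was 0.0503, 0.081 or 0.0671. The structural RNA share of that library was high, and its part in the Rgs5 value was not tested. The 9 other smooth muscle genes, among them Acta2 (-0.22, adjusted p = 0.248) and Myh11, the smooth muscle myosin heavy chain (-0.11, 0.537), and the PDGF receptor gene Pdgfrb (0.08, 0.411) did not pass. Of these, Cald1 lay at 139, 264, 157 and 162 CPM in the aPVAT controls. Without aPVAT control 2 it was called lower in aPVAT (-0.53, adjusted p = 2.26e-05). It was also called lower without both libraries rich in structural RNA (-0.52, adjusted p = 1.86e-05).

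**Figure D3:**
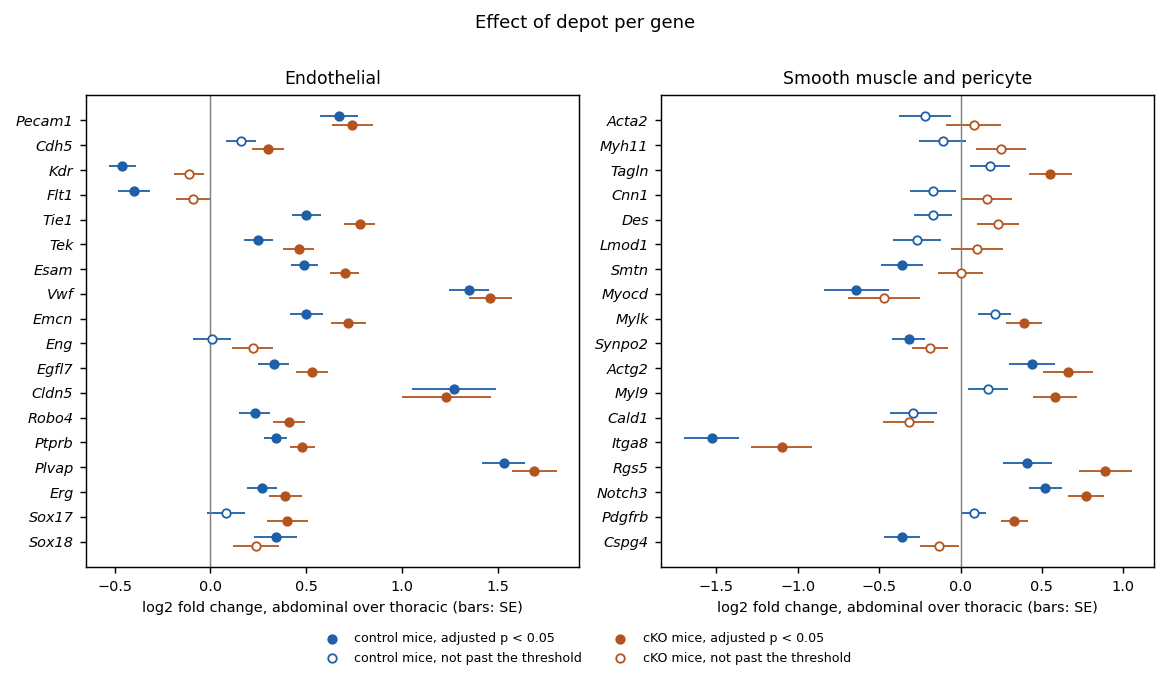
Log2 fold change (aPVAT over tPVAT, TMM scale) of each gene with its SE, in control and in cKO mice; filled points passed an adjusted p of 0.05. Plvap, Vwf and Cldn5 stand at the right in both genotypes and Itga8 at the left, while Kdr and Flt1 lie left of 0 (right of 0 on library totals alone).

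In cKO mice the same comparison of depots called 14 of 18 endothelial genes higher and 0 lower, and 7 of 18 mural genes higher and 1 lower. The background in this comparison was 52.6%, with 27.2% of all genes higher and 25.4% lower. Of the endothelial genes, 12 were called higher in both genotypes, in comparisons that share no library. The depots were separate for 22 members above and 4 below, against 55.0% of all genes (27.4% above, 27.5% below). Plvap was higher by 1.69 (SE 0.117, adjusted p = 1.08e-08), Vwf by 1.46 (SE 0.112, 3.32e-08) and Cldn5 by 1.23 (SE 0.232, 0.000373). Kdr and Flt1 lay at -0.11 (adjusted p = 0.251) and -0.09 (0.398) here, and Kdr made up 7.96% ± 0.231 of endothelial counts in tPVAT cKO (SD, n = 4) and 4.79% ± 0.353 in aPVAT cKO (n = 3). Cdh5 and Sox17 were called in cKO (0.30 and 0.40, adjusted p = 0.00805 and 0.00568), Cdh5 not without aPVAT cKO 4 (adjusted p = 0.0589).

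Of the mural genes, Actg2, Rgs5 and Notch3 were called higher and Itga8 lower in both genotypes. Rgs5 lay at 368, 294, 371 and 412 CPM in tPVAT cKO and at 678, 649 and 678 CPM in aPVAT cKO, a difference of 0.89 on the log2 scale (SE 0.163, adjusted p = 0.000305) without overlap. Itga8 was lower at -1.10 (SE 0.186, adjusted p = 0.000145), at 222, 194, 203 and 224 against 90.0, 96.3 and 109 CPM. Myl9 (0.58), Tagln (0.55), the myosin kinase gene Mylk (0.39) and Pdgfrb (0.33) were also called higher in aPVAT, with adjusted p of 0.00193, 0.00258, 0.00794 and 0.00357. Tagln shares 67.9% of its exon bases with genes on the opposite strand, and how the counting treated strand is not given in the sources used here, so its value is uncertain. Whether a depot difference itself differs between genotypes is the interaction given below.

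Other genes of the endothelium and its signals were set beside the members in control mice. In this comparison 29.3% of all genes were called higher and 27.3% lower, so calls in these lists are common by themselves. Vegfa, the main ligand of Kdr and Flt1, lay at 195 ± 17.1 CPM in tPVAT and 92.3 ± 9.07 CPM in aPVAT (SD, n = 4 each) and was lower at -1.08 (SE 0.0929, adjusted p = 8.36e-08). Vegfd, a ligand of the lymphatic VEGF receptor, was higher by 1.17 (2.97e-08). The coreceptor gene Nrp2 was lower at -0.55 and the angiopoietin gene Angpt2 higher by 0.73, and of the list of 16 ligands and receptors 8 rose and 4 fell. Venous genes were called higher in 5 of 5 cases, among them the venous transcription factor Nr2f2 (1.0), Vcam1 (1.07) and Ackr1 (1.5). Lymphatic genes were higher in 6 of 7, among them Ccl21a (1.76) and Prox1 (1.15), and arterial genes in 5 of 7, among them Gja4 (0.90) and Bmx (1.05).

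Of 19 other endothelial genes 12 were called higher and 2 lower, with the smallest p for the nitric oxide synthase gene Nos3 (0.76) and Mmrn2 (0.77). Nos3 lay at 42.6 ± 2.79 CPM in tPVAT and 72.0 ± 5.83 CPM in aPVAT (SD, n = 4 each). Genes of capillary fatty acid uptake split into 2 higher (Meox2 0.60, Cav1 0.52) and 2 lower (Tcf15 -0.38, Cd36 -0.22) of 9. Of 19 other smooth muscle genes 4 were higher and 8 lower, with Mustn1 at 1.19 and Rbpms2 at -1.13. Other pericyte genes were higher in 6 and lower in 3 of 11, with Vtn at 1.33 and Steap4 at 0.89. The 4 PDGF ligands were all called, Pdgfc at 1.06 and Pdgfa at 0.30 higher, Pdgfd at -0.75 and Pdgfb at -0.41 lower. Smooth muscle regulators were higher in 6 and lower in 3 of 13, with Gata6 at 0.77 and Tbx18 at -0.81. The share called was 73.7% of the other endothelial, 44.4% of the fatty acid uptake, 63.2% of the other smooth muscle and 81.8% of the other pericyte genes. It was 69.2% of the regulators, against 56.6% of all genes.

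Markers of other cells were called by depot as well, where 29.3% of all genes were called higher and 27.3% lower. Macrophage markers were called higher in 7 of 7 (summed level 256 to 284 CPM in tPVAT and 452 to 626 CPM in aPVAT control) and fibroblast markers in 6 of 7 (1610 to 1990 and 2890 to 3680 CPM). Heart muscle markers were lower in 8 of 8 tested of 9 listed, with a summed level of 235 to 312 CPM in tPVAT and 23.2 to 27.8 CPM in aPVAT control. Skeletal muscle markers were lower in 6 and higher in 1 of 8 tested of 9 listed (summed level 11.6 to 72.1 and 4.69 to 9 CPM). Platelet markers, of cells that also hold Vwf protein, were lower in 3 and higher in 1 of 5 (18.8 to 23.7 and 21.0 to 29.4 CPM). Adipocyte markers were mixed, with 2 higher and 1 lower of 6 (8880 to 9760 and 9480 to 11000 CPM). The part of these in the member values was not tested.

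The genotype comparison in tPVAT asks how vessel markers of that depot differed between mice with and without the deletion in adipocytes. Of the 36 members 7 were called lower and 0 higher: Kdr, Flt1, Tie1 and Esam among 18 endothelial, and Des, Notch3 and Pdgfrb among 18 mural genes. Of all genes 12.0% were called, 6.61% lower and 5.44% higher, and the share of members lower was 22.2% of the endothelial and 16.7% of the mural genes. The log2 fold change was negative for 35 of 36 members, Cald1 being the exception (0.23, adjusted p = 0.348), with medians of -0.22 over endothelial, -0.31 over smooth muscle and -0.23 over pericyte members against -0.013 over all genes. The 2 genotypes were separate, cKO below, for 17 members and above for 1, where 23.2% of all genes were separate (12.2% below, 11.0% above). At an unadjusted p under 0.05 there were 21 members, and the share of all genes at that threshold was not counted.

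Of the called endothelial genes, 3 encode receptors of angiogenic signals. Kdr lay at 149, 177, 144 and 171 CPM in control and at 128, 124, 128 and 132 CPM in cKO, so every cKO library lay below every control, with log2 fold change -0.32 (SE 0.0722, adjusted p = 0.00783). Flt1 lay at 138, 125, 131 and 155 CPM in control and at 113, 93.2, 107 and 120 CPM in cKO, at -0.34 (SE 0.0821, adjusted p = 0.0114) and no overlap. Tie1 (chr4:118471191-118490061, minus strand) lay at 63.8, 67.6, 64.9 and 75.1 CPM in control and at 50.9, 52.6, 52.7 and 55.4 CPM in cKO, at -0.36 (SE 0.0758, adjusted p = 0.00528). These 3 genes kept the call without any 1 of the 8 libraries, but on library totals without TMM Kdr lost it (-0.25, adjusted p = 0.0639). Esam fell by 0.25 (SE 0.072, adjusted p = 0.036), from 34.9 to 36.6 CPM in control to 28.4 to 32.0 CPM in cKO.

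The mural receptor Pdgfrb lay at 68.7, 73.3, 62.3 and 71.8 CPM in control and at 54.2, 55.0, 50.2 and 56.3 CPM in cKO, without overlap, at -0.36 (SE 0.0775, adjusted p = 0.0066), and the call held without any 1 of the 8 libraries. Notch3 (chr17:32120820-32166852, minus strand) lay at 54.9, 51.3, 53.1 and 60.5 CPM in control and at 42.9, 41.5, 36.5 and 48.4 CPM in cKO, at -0.38 (SE 0.102, adjusted p = 0.024). Both are receptors by which mural cells receive signals. Des, the muscle intermediate filament desmin (chr1:75360329-75368579, plus strand), lay at 59.9, 63.7, 64.1 and 63.7 CPM in control and at 44.4, 42.6, 45.3 and 52.1 CPM in cKO, at -0.45 (SE 0.119, adjusted p = 0.0213). Heart muscle also makes desmin, and 4 of 8 heart muscle markers were called lower in the same libraries, with summed levels of 235 to 312 CPM in control and 88.0 to 229 CPM in cKO, and their part in the Des value was not tested. Leaving out 1 library ended the call of Esam for 6 of 8 libraries (adjusted p up to 0.102), all but tPVAT cKO 1 and 2, of Des for 6 of 8 (up to 0.061), all but tPVAT control 1 and cKO 4, and of Notch3 for tPVAT controls 1 and 4 and cKO 1 and 3 (up to 0.0812).

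For the contractile genes the call depended on the fit. Acta2 lay at 973, 1220, 867 and 857 CPM in control and at 802, 892, 713 and 728 CPM in cKO (-0.32, adjusted p = 0.216), with overlap between the groups, although cKO lay below control at each of the 4 numbers. Myh11 at -0.34 (0.143), Tagln at -0.32 (0.113), Myl9 at -0.34 (0.093) and Lmod1, an actin nucleator, at -0.38 (0.11) did not overlap between genotypes and missed the threshold. In a fit of the 8 tPVAT libraries alone, without a block, 20.7% of all genes were called. There Myh11 (-0.32, adjusted p = 0.00579), Tagln (-0.3, 0.019), Myl9 (-0.32, 0.016) and Lmod1 (-0.36, 0.00128) were called lower. Acta2 and the calponin gene Cnn1 were not called in that fit. With the number as a block within these 8 libraries, Acta2 (-0.29, adjusted p = 0.00469), Myh11 (-0.32, 0.00984), Tagln (-0.29, 0.0139), Myl9 (-0.31, 0.0146), Lmod1 (-0.36, 0.00258) and Cnn1 (-0.28, 0.0336) were called lower. With the number as a block in the model of all 15 libraries, Acta2 (0.101), Myh11 (0.168), Tagln (0.0963), Myl9 (0.0915) and Lmod1 (0.111) were not. Erg (-0.02) and Rgs5 (-0.04) lay nearest to 0. Among the endothelial genes not called, the adjusted p was smallest for Cdh5 (-0.25, adjusted p = 0.0519) and Eng (-0.31, 0.0536).

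Deviations from group means correlated at 0.107 to 0.396 between tPVAT control and cKO libraries of the same number. For different numbers the correlation was -0.478 to 0.316, so the ranges overlap and a pairing by number is not established. The number was also fitted as a block, and the counts depend on the fit. With the number as a block in the model of all 15 libraries 8 endothelial and 3 mural members were lower, and with the block within the 8 tPVAT libraries 12 and 11 were lower and 1 mural member, Cald1, higher. Of all genes 12.2% and 26.2% were called in these fits, against 12.0% without the block, so calls rose among all genes too in the second fit. Adipocyte markers rose in the same comparison for 2 of 6 genes (Adipoq 0.41, Plin1 0.34), with summed levels of 8880 to 9760 CPM in control and 10400 to 11600 CPM in cKO, while 0 of 7 fibroblast and 0 of 7 macrophage markers were called. Their part in the vessel marker values was not tested.

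**Figure D4:**
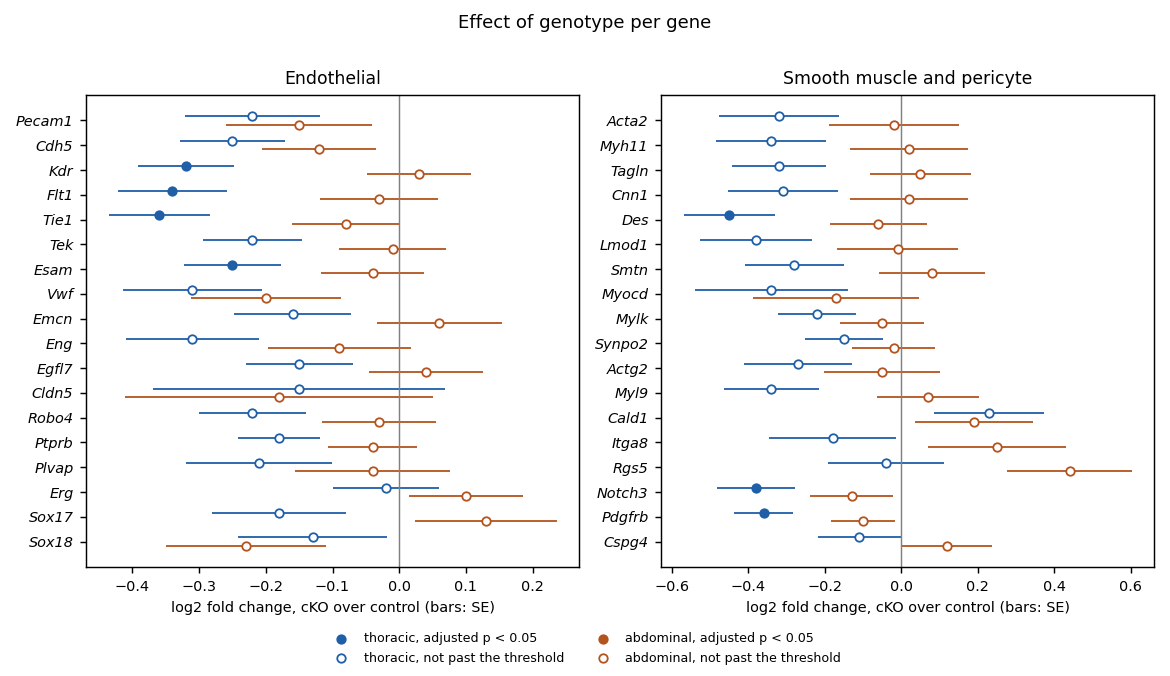
Log2 fold change (cKO over control) of each gene with its SE, in thoracic and abdominal fat; filled points passed an adjusted p of 0.05. In thoracic fat 35 of 36 genes lie left of 0 and 7 are filled, and in abdominal fat none is filled.

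Calls in the other lists stand beside 12.0% of all genes called in this comparison, 6.61% lower and 5.44% higher. The share called was 28.6% of arterial, 27.3% of other pericyte, 22.2% of fatty acid uptake and 20% of venous genes. It was 15.8% of other smooth muscle genes, 15.4% of smooth muscle regulators, 10.5% of other endothelial genes and 6.25% of ligands and receptors. Among arterial genes Efnb2, the ephrin B2 ligand of arterial endothelium (-0.29, adjusted p = 0.00991), and Sema3g (-0.31, 0.0294) fell, and Ephb4, the venous receptor of Efnb2, fell by 0.30 (0.0206), so 2 of 7 arterial and 1 of 5 venous genes were lower. Notch1 fell by 0.30 (0.0222) as the sole call among 16 ligands and receptors, while Vegfa lay at 195 ± 17.1 CPM in control and 189 ± 21.3 CPM in cKO (SD, n = 4 each; -0.05, adjusted p = 0.795). Of 19 other endothelial genes She (-0.25) and Adgrf5 (-0.27) fell. Of 11 other pericyte genes the potassium channel genes Abcc9 (-0.38, 0.00484) and Kcnj8 (-0.37, 0.0131) fell, and Steap4 rose by 0.67 (0.000162), from 140 ± 16.2 to 223 ± 20 CPM (SD, n = 4 each).

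Abcc9 and Kcnj8 encode the 2 parts of 1 channel. Of 19 other smooth muscle genes 3 fell, Wtip (-0.37), Casq2 (-0.65) and Pgm5 (-0.35), as did the regulators Tbx18 (-0.62, adjusted p = 0.00464) and Smad3 (-0.25, 0.0238) of 13. Casq2 is also a heart muscle gene. Among 9 genes of fatty acid uptake Fabp5 (1.32, adjusted p = 1.47e-06) and Fabp4 (0.37, 0.013) rose, both of which adipocytes express too. No PDGF ligand of 4 and no lymphatic gene of 7 was called.

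In aPVAT the same comparison called 0 of 36 members, with 1 member, Rgs5, at an unadjusted p under 0.05, and DESeq2 also called 0. The background was low as well, with 1.53% of all genes called, 0.743% higher and 0.789% lower. The medians were -0.04 over endothelial and 0.01 over mural members, and no member had separate genotypes, against 9.56% of all genes (3.76% above, 5.80% below). Kdr lay at 115, 124, 105 and 120 CPM in control and at 123, 115 and 118 CPM in cKO (0.03, SE 0.0778), and Tie1 at 91.2 to 107 and 81.0 to 98.9 CPM (-0.08, SE 0.0813). Rgs5 (chr1:169655501-169695813, plus strand) lay at 373, 707, 432 and 465 CPM in control and at 678, 649 and 678 CPM in cKO, a difference of 0.44 (SE 0.163, adjusted p = 0.265).

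The aPVAT control library with 707 CPM lies above all cKO libraries, and the other 3 controls lie below them. Without aPVAT control 2 Rgs5 (0.66, adjusted p = 0.00604), Cald1, a caldesmon (0.43, 0.00856), and Itga8 (0.52, 0.0206) were called higher in cKO. With both libraries rich in structural RNA left out, Rgs5 (0.65, 0.0186) and Cald1 (0.48, 0.00698) were called. In each of these 3 genes aPVAT control 2 stood highest in its group, at 707, 264 and 126 CPM. Of the other lists only Fabp5 (0.67, adjusted p = 0.00819) rose and the fibroblast gene Dpt (-0.70, 0.0123) fell. Macrophage markers summed to 452 to 626 CPM in control and 323 to 435 CPM in cKO, with 0 of 7 called and 6 of 7 at an unadjusted p under 0.05. The share of all genes at that unadjusted threshold was not counted.

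Whether the genotype effect differs between depots was tested as an interaction, with the effect in tPVAT subtracted from that in aPVAT. Of 36 members 0 were called by edgeR and 0 by DESeq2, against 0.784% of all genes called by edgeR, 0.158% higher and 0.626% lower. There were 8 members at an unadjusted p under 0.05, and the share of all genes at that threshold was not counted. The value was positive for 33 of 36 members, with medians of 0.19 over endothelial, 0.34 over smooth muscle and 0.25 over pericyte members against -0.006 over all genes. Kdr had the smallest p, with 0.35 (SE 0.106, adjusted p = 0.202), and Flt1 (0.31, 0.421), Tie1 (0.28, 0.429) and Pdgfrb (0.25, 0.53) followed the same sign. So the calls in tPVAT and their absence in aPVAT are not shown to differ. Without aPVAT control 2 Itga8 (0.70, adjusted p = 0.0266) and Rgs5 (0.70, 0.0359) were called.

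Set against each other within a library, endothelial and mural genes give a balance that scaling does not touch. It is the mean log2 CPM over the 18 endothelial genes minus that over the 18 mural genes, and since gene length enters it, only differences between libraries are read. It was -0.96, -0.93, -1.01 and -0.71 in tPVAT control, -0.89, -0.84, -0.81 and -0.94 in tPVAT cKO, -0.37, -0.57, -0.17 and -0.21 in aPVAT control, and -0.30, -0.54 and -0.47 in aPVAT cKO. Every aPVAT library lay above every tPVAT library, while within each depot the genotypes overlapped. The means were -0.90 ± 0.133, -0.87 ± 0.0572, -0.33 ± 0.182 and -0.44 ± 0.123 (SD, n = 4, 4, 4 and 3), with no test because the members were chosen with results known. Against smooth muscle genes alone the depots were separate too. Against the 4 pericyte genes alone they were separate in control mice, at -0.74 to -0.63 in tPVAT and -0.55 to -0.32 in aPVAT. In cKO mice they overlapped there, at -0.84 to -0.61 in tPVAT and -0.67 to -0.46 in aPVAT.

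The sums also put the aPVAT means above the tPVAT means. Endothelial counts per mural count were 0.463 ± 0.0492 in tPVAT control, 0.459 ± 0.0101 in tPVAT cKO, 0.685 ± 0.0964 in aPVAT control and 0.593 ± 0.0354 in aPVAT cKO (SD, n as before). In tPVAT cKO the endothelial mean lay at 5.88 to 5.91 and the mural mean at 6.70 to 6.84, against 6.03 to 6.19 and 6.89 to 7.11 in control, so both sides lay lower and the balance overlapped. With the median over members in place of the mean, aPVAT control stood at 0.14 and aPVAT cKO at -0.05, against -0.83 and -0.89 in tPVAT. Without Des, Mylk, Synpo2, Actg2, Myl9, Cald1 and Pdgfrb, which other cells also express, the means were -1.15, -1.10, -0.48 and -0.61 in tPVAT control, tPVAT cKO, aPVAT control and aPVAT cKO. The size of the balance depends on the summary, and under both of these the aPVAT means stayed above the tPVAT means.

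**Figure D5:**
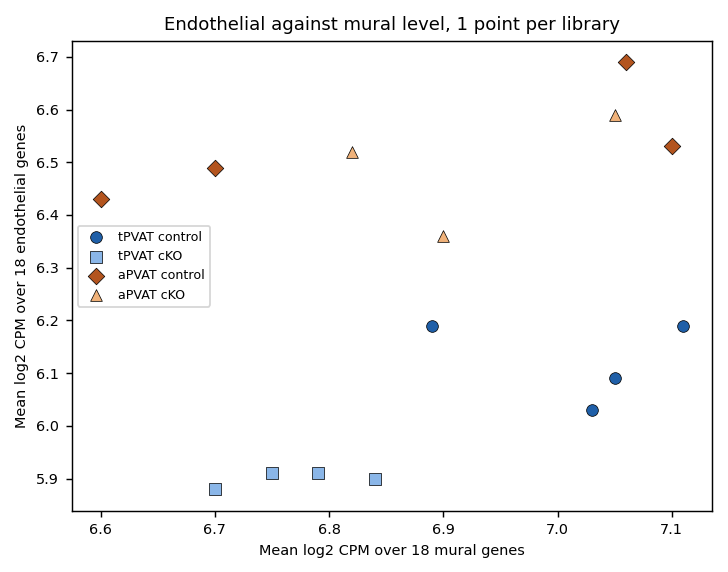
Mean log2 CPM of the 18 endothelial genes (vertical) against that of the 18 mural genes (horizontal), 1 point per library; neither axis starts at 0. The aPVAT libraries lie at 6.36 to 6.69 on the endothelial axis and the tPVAT libraries at 5.88 to 6.19, while the depots overlap on the mural axis.

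Within 3 of the 4 groups, most smooth muscle genes were highest or lowest in the same library. In tPVAT control, library 4 was the lowest of its group for 13 of 14 smooth muscle genes and library 2 the highest for 10. In tPVAT cKO no library held most of either, the highest values falling to 5, 3, 1 and 5 genes and the lowest to 1, 7, 6 and 0 in libraries 1 to 4. In aPVAT control, library 3 was the lowest for 12 of 14, library 1 the highest for 9 and library 2 for the other 5. In aPVAT cKO, library 4 was the highest for 11 of 14 and for 4 of 4 pericyte genes, and it is the shallowest and richest in structural RNA. The median SD (log2) of smooth muscle genes was 0.32 in aPVAT control, against 0.15 over all genes there and 0.16, 0.09 and 0.17 for smooth muscle genes in tPVAT control, tPVAT cKO and aPVAT cKO. Endothelial genes stayed near the spread of all genes, at 0.10, 0.09, 0.13 and 0.14 in tPVAT control, tPVAT cKO, aPVAT control and aPVAT cKO, although aPVAT control 1 was the highest for 13 of 18 and aPVAT cKO 3 the lowest for 17 of 18.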

How the data were processed

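The authors deposited unscaled read counts by Ensembl gene, in whole numbers, for 15 libraries whose totals differ. Per the labels' protocols, frozen tissue was pulverised, RNA was purified with TRIzol and RNeasy Micro columns, and stranded mRNA libraries were made. Per the submitters' processing notes the build was mm10, with Salmon, Subread and DESeq2 1.42.1 named without a role. The tool that counted, its annotation and its use of strand were not given in the sources used here. Number 2 in aPVAT cKO was not analysed here.

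Columns were matched to samples by depot, genotype and number. Symbols came from GENCODE M21 (42468 of 43352 identifiers matched, 36 of 36 members). In R 4.3.3 with edgeR 4.0.16, filterByExpr with a minimum count of 10 kept 19645 genes, TMM scaled the libraries, and 1 quasi-likelihood model with 4 group means gave 5 contrasts, each adjusted by Benjamini-Hochberg over all genes tested. The common biological coefficient of variation was 0.142. SE is the size of the log2 fold change divided by the square root of F. RPKM is scaled CPM per kilobase of merged exons. No library pair looked like 1 library counted again, with chi-square per degree of freedom of at least 10.5. The model was tested on simulated data.

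The members and the gene lists were chosen with earlier results of these data known. The text names all members and, of each other list, up to 4 genes with the smallest p in a contrast described, plus genes counted in 5 or fewer and Vegfa in tPVAT, which was added after its values were seen. DESeq2 1.42.0, limma 3.58.1, other scalings, filters, libraries and blocks were alternatives, and the block within the libraries compared was chosen after seeing the data. Whether numbers pair libraries was checked by the correlation of deviations from group means. Between tPVAT control and cKO it was 0.27, 0.271, 0.396 and 0.107 for numbers 1 to 4. Libraries of different numbers gave -0.478 to 0.316. Control 4 correlated more with cKO 1 (0.289) and cKO 2 (0.148) than with cKO 4. The model reported has no block. Numbers were treated as pairs there only in the alternatives with a block, a pairing that these values do not establish. That pairing comes from the data and not from the labels.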

Additional observations from a re-analysis of the deposited data

Results flagged for a closer look

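Of 111 groups of 4 libraries tested for 1 library far from its group, 8 stood out, and chance gives about 5.6. The number given is the gap to the nearest library as a share of the range of the group. In aPVAT control, library 1 was high for Pecam1 (564 against 414 to 430 CPM, 0.893) and Flt1 (110 against 101 to 102 CPM, 0.889). Library 2 of that group was high for Synpo2 (82.0 against 56.4 to 56.9 CPM, 0.98) and Itga8 (126 against 66.6 to 72.6 CPM, 0.899), and library 4 was low for the endothelial factor Sox17 (11.3 against 13.2 to 13.4 CPM, 0.905). In tPVAT, control 1 was low for Des (59.9 against 63.7 to 64.1 CPM, 0.905), control 4 was low for Lmod1 (73.0 against 78.8 to 79.3 CPM, 0.921), and cKO 3 was low for Tagln (345 against 370 to 375 CPM, 0.833).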

How the results depend on the processing

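Counts are of members called lower unless stated. For cKO against control in tPVAT, DESeq2 gave 9 endothelial members lower, library totals 2, the 8 tPVAT libraries alone 10 endothelial and 8 mural lower and 1 mural higher, and weights per library 11 and 7. Of all genes 16.5% were called by DESeq2, 20.7% from the 8 libraries alone and 20.8% with weights, against 12.0% in the model reported, so calls rose among all genes too. The replicate block with the number as a term gave 8 endothelial lower, and within the libraries compared 12 endothelial and 11 mural lower and 1 mural higher. Leaving out 1 library gave 3 to 6 endothelial and 1 to 3 mural lower, with 1 mural without tPVAT control 4, cKO 1 or cKO 3. On library totals Kdr (adjusted p = 0.0639), Notch3 (0.0659) and Esam (0.195) lost the call, and Esam without the low-count filter (0.0648). For cKO against control in aPVAT, leaving out 1 library gave 0 to 3 mural higher, and the interaction 0 to 2, and without the 2 libraries rich in structural RNA 2 mural were higher in aPVAT. Scaling by library totals moved the median of all genes by depot to 0.78 in control and 0.69 in cKO. In control it then gave 0 endothelial lower, 16 mural higher and 1 lower, and in cKO 15 mural higher. Of all genes 81.6% in control and 76.4% in cKO were called on library totals, against 56.6% and 52.6% in the model reported, so calls rose among all genes too. The values in control became 0.28 (Kdr), 0.34 (Flt1), 0.52 (Acta2), 0.63 (Myh11), 0.57 (Cnn1), 0.58 (Des), 0.48 (Lmod1), 0.39 (Smtn), 0.11 (Myocd), 0.43 (Synpo2), 0.46 (Cald1) and 0.38 (Cspg4), and in cKO 0.54 (Kdr), 0.56 (Flt1), 0.65 (Smtn), 0.46 (Synpo2) and 0.52 (Cspg4), all below the median of all genes. For depot in control, the libraries compared alone gave 1 mural higher, weights 11 mural lower, and leaving out 1 library 2 to 5 mural higher and 4 to 7 lower, with 5 higher without aPVAT control 3. For depot in cKO, mural lower were 4 (libraries compared alone), 3 (weights), 3 (without the 2 libraries), 3 (replicate block within the libraries) and 1 to 2 (leaving out 1 library, 2 without tPVAT cKO 3). The balance became 0.14 and -0.05 in aPVAT control and cKO by the median over members, and -0.61, -1.10 and -1.15 in aPVAT cKO, tPVAT cKO and tPVAT control without 7 genes. Same-number correlations outside the tPVAT genotype comparison were -0.395 to 0.323, so those numbers were not taken as pairs, and the block ended there only the call of Rgs5 by depot in control (adjusted p = 0.0591, and 0.179 within the libraries compared) and, within the libraries compared, of Robo4 (0.0835) and Sox18 (0.0513). It also gave, within the libraries compared, calls of Acta2 and Lmod1 by depot in control and of Eng, Des, Synpo2 and Cald1 in cKO. Without the block, the libraries compared alone also lost Rgs5 (adjusted p = 0.12), Robo4 (0.0539), Sox18 (0.065) and Actg2 (0.0693) by depot in control. They also called Synpo2 (0.022) and Cald1 (0.00418) in cKO, so those changes arose without the block too. The cause of these changes was not tested.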
